A study of Arabidopsis thaliana with 9 samples.

Results

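Transcripts of 37 WRKY transcription factor genes of Arabidopsis thaliana were followed across 9 RNA sequencing libraries of aboveground tissue. The 37 genes were taken by locus from a list of family members lying outside stretches of chromosomes 3 and 4 whose genes were raised together in earlier results of these data. They are 37 of the 33977 genes counted in each library and 37 of the 72 family genes listed here. All 37 were found in the files and all 37 passed the filter on low counts, which left 19870 genes for testing. The other 35 family genes are described after them, and 24 of those passed. Some of these 35 also lie outside the raised stretches, such as WRKY2 on chromosome 5.

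The libraries came from plants of the Col-0 ecotype at bolting, grown on soil, and each group held 3 libraries labelled as biological replicates. The dwarf group had the genotype PPD3-RNAi T+ and a dwarf phenotype. The large group had the same genotype label, PPD3-RNAi T+, and a large phenotype. The WT group was the wild type in the same ecotype. PPD3 is a chloroplast protein with a PsbP domain, and an RNA interference transgene is built to lower the transcripts of its target. The sources used here do not say which promoter drove the transgene, how many independent lines were used, or how many plants made up a library.

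Gene counts summed to between 34660392 and 35217754 per library, so depth was nearly equal. PPD3 stood at 87.6 to 128 CPM (read counts scaled to a common library size with a normalization factor) in dwarf, 77.9 to 108 CPM in large and 91.1 to 115 CPM in WT libraries. Its log2 fold change was 0.03 for dwarf against WT and -0.17 for large against WT (adjusted p = 0.934 and 0.708 by the quasi-likelihood test of edgeR). The level of the target transcript passed the test in neither comparison, and dwarf, large and WT below name the labels on the libraries. By locus number PPD3 (AT1G76450) lies between the defence gene PR5 (AT1G75040) and WRKY40 (AT1G80840) on chromosome 1. The median log2 ratio to the WT mean of neighbouring genes was 0.50 in dwarf 1 and 0.49 in dwarf 2 around PR5. Around WRKY40 it was 0.50 and 0.63. No such value is given for PPD3, and the part of this rise in its level was not tested. Libraries dwarf 1, dwarf 2 and large 2 stood apart from the rest on the first principal component of all genes tested, which held 38.2% of the variance. Their scores were -77.5, -41.0 and -16.9, against 5.70 to 37.3 in the other 6 libraries. Values with and without dwarf 1 and large 2 are given where a result rests on them.

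WRKY proteins are plant transcription factors named for a short conserved peptide in their DNA-binding domain, and they bind promoters at the W box. Many are themselves switched on within hours of microbial, salicylic acid or wounding signals. MAP kinases and VQ-motif proteins act on several of them, and WRKY genes commonly carry W boxes in their own promoters. In leaves the family is best known for setting the strength of defence, with activators and repressors side by side, and for the onset of senescence. Group I members have a WRKY domain at each end of the protein, whereas group II (subgroups IIa to IIe) and group III members carry one only.

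The coding stretch of the name-giving peptide shows what unites the family and where its members differ. It was found in the annotated coding sequence of all 37 genes, with 2 copies in all 7 group I members. The 21 bases are given for the members whose values are described first and for the variants, with the sixth codon in capitals. That codon is CAA or CAG, for glutamine, in the usual form. It is AAG, for lysine, in WRKY50 and WRKY51, the 2 members of the list with the variant peptide. Sequences and coordinates are from the RefSeq annotation of the TAIR10.1 assembly.
WRKY17, chr2:10437970-10437990, minus strand: tggagaaagtatggaCAAaaa
WRKY60, chr2:10630643-10630663, plus strand: tggaggaaatacgggCAAaag
WRKY33 amino-terminal copy, chr2:16109358-16109378, plus strand: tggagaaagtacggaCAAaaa
WRKY33 carboxy-terminal copy, chr2:16109982-16110002, plus strand: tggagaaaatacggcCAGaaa
WRKY50, chr5:9147579-9147599, minus strand: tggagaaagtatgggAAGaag
WRKY51, chr5:25908864-25908884, plus strand: tggaggaagtatggcAAGaaa

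The promoters of 3 members are shown because they span what was found near the gene starts, with the 250 bases before the annotated start of each gene, on the strand of the gene, and W boxes in capitals. WRKY17 and WRKY60 were the members called in the comparison of dwarf with WT, and WRKY30 held the most W boxes of the 37.
WRKY17 promoter, chr2:10439470-10439719, minus strand: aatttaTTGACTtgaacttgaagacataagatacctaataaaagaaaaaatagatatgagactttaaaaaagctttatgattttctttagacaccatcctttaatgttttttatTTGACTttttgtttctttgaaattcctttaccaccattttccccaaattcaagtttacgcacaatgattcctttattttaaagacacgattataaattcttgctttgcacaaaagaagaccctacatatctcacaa
WRKY60 promoter, chr2:10629412-10629661, plus strand: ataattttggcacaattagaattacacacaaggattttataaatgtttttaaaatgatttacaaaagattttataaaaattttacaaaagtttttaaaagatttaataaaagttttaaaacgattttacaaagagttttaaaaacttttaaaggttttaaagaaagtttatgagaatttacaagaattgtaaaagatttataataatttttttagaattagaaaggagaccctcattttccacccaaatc
WRKY30 promoter, chr5:8154711-8154960, minus strand: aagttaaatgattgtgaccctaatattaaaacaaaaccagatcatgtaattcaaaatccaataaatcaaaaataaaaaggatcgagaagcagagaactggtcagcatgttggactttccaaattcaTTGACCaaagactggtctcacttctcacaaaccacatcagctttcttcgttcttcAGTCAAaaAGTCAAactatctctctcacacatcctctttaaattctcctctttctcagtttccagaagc

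A W box was searched for as TTGACC or TTGACT on both strands in the window from 250 bases before to 50 bases after each annotated gene start. WRKY17 had 2, starting at positions -244 and -136 counted from the gene start, both on the strand of the gene. WRKY60 had 0 in that window. WRKY30 had 3, at -124 on the gene strand and at -69 and -61 on the opposite strand. At least 1 was found in 16 of the 37 members (43.2%), in 10 of the other 35 family genes (28.6%) and in 32.4% of 27443 nuclear protein-coding genes. For 2 or more, the counts were 7 members (18.9%) and 7.7% of all genes. The median log2 fold change of dwarf against WT was 0.75 over the 16 members with a W box and 0.47 over the 21 without. Over all tested genes it was 0.08 with and 0.03 without. These are descriptions of letters in a window and were not tested.

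**Figure D1:**
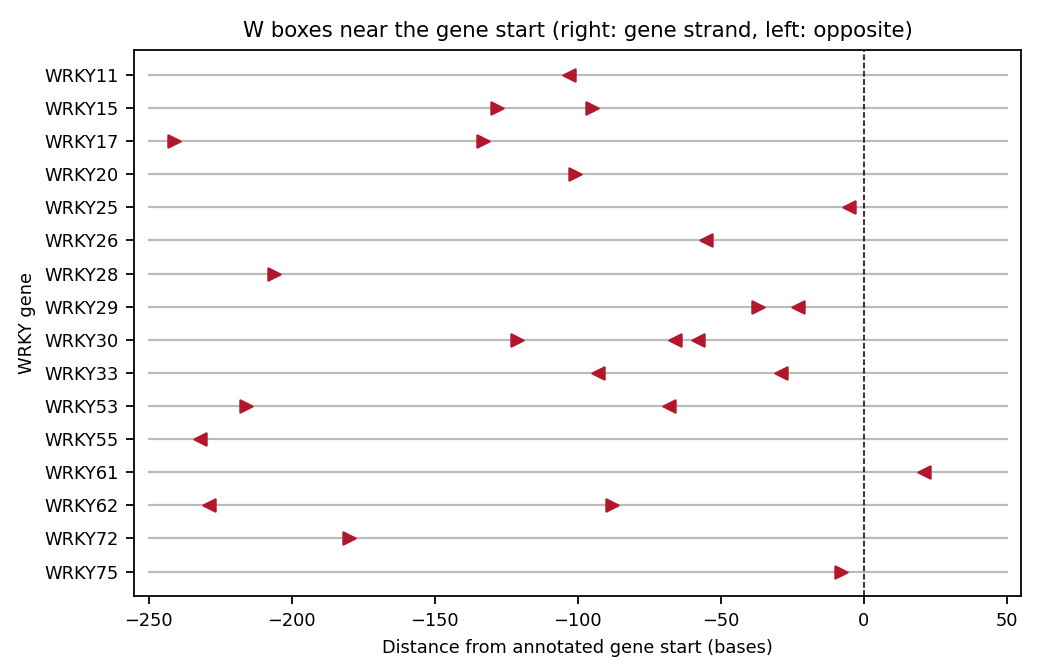
Positions of W boxes (triangles) in the 16 members that hold any, in bases from the annotated gene start (dashed line), with the triangle pointing right for the gene strand and left for the opposite strand. WRKY30 holds 3, the others 1 or 2, and WRKY61 is the member whose W box lies after the gene start.

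Levels per length differed widely within the family. On the scale of CPM divided by exon length in kilobases (RPKM), averaged over the 9 libraries, WRKY70 was highest at 119.7, followed by WRKY54 at 73.2 and WRKY33 at 33.4. WRKY70 averaged 143 ± 46.1 RPKM in dwarf, 101 ± 24.1 RPKM in large and 115 ± 5.49 RPKM in WT libraries (SD, n = 3 each). WRKY33 and the next gene, WRKY15 (32.6 RPKM), did not differ beyond their spread in dwarf or large libraries. They averaged 39.8 ± 16.3 and 43.6 ± 20.1 RPKM in dwarf and 31.3 ± 13.9 and 30.1 ± 8.41 RPKM in large libraries. In WT libraries they averaged 29.3 ± 2.28 and 24.0 ± 2.72 RPKM, so their order changed with the group. WRKY72, WRKY31 and WRKY61 were lowest, at 0.197, 0.72 and 0.84 RPKM. WRKY72 (AT5G15130) rested on 33, 19 and 11 reads in dwarf, 5, 16 and 6 in large and 10, 12 and 15 in WT libraries, the fewest of the 37. WRKY31 (AT4G22070) had 2.77, 2.93 and 1.14 CPM in dwarf, 0.597, 1.89 and 0.497 CPM in large and 1.07, 1.35 and 1.91 CPM in WT libraries. WRKY61 (AT1G18860) had 3.71, 1.34 and 0.771 CPM in dwarf, 0.398, 3.09 and 0.935 CPM in large and 1.27, 1.23 and 1.51 CPM in WT libraries. In both, large 1 or large 3 was the lowest of the 9 libraries. All 37 together took between 0.0622 and 0.149% of the counts of a library.

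Levels of the members differed widely over the 9 libraries, but little among those labelled WT. The WT libraries lay close together, with a median ratio of the highest to the lowest of 1.17 for the 37 members and 1.16 for all genes. Over all 9 libraries the median ratio was 3.23 for the members and 1.70 for all genes. That ratio takes in differences between labels as well as within them. On it, 14 members (37.8%) spanned over 4-fold, against 11.2% of all genes. The member with the widest span was WRKY75, a regulator of phosphate starvation and senescence responses, at 13.2-fold. It had 18.7, 8.14 and 1.42 CPM in dwarf, 1.73, 13.6 and 3.16 CPM in large and 3.37, 3.13 and 5.69 CPM in WT libraries, so dwarf 1, dwarf 2 and large 2 were above all WT libraries and dwarf 3 and large 1 were below all of them. WRKY75 is described here because of its span, after its values were seen.

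Library dwarf 1 held the highest level of 29 of the 37 members, a position it held for 25.3% of all genes tested. The median log2 ratio of the members to the WT mean was 1.09 in dwarf 1, 0.57 in dwarf 2 and -0.13 in dwarf 3. In large 1, large 2 and large 3 it was -0.27, 0.34 and -0.42. Over all genes these medians lay between 0.00 and 0.04 in the 6 PPD3-RNAi libraries. Members above every WT library numbered 32 in dwarf 1, 30 in dwarf 2 and 26 in large 2, but 8 in dwarf 3, 8 in large 1 and 6 in large 3. The same held for 43.3, 39.9 and 38.9% of all genes in dwarf 1, dwarf 2 and large 2 and for 39.3, 34.6 and 37.1% in dwarf 3, large 1 and large 3. As shares of the 37 members, the counts were 86.5, 81.1 and 70.3% in the first 3 libraries, above those of all genes, and 21.6, 21.6 and 16.2% in the other 3, below them. For 18 members (48.6%) the 3 highest libraries were dwarf 1, dwarf 2 and large 2, an arrangement picked after the values were seen, which 6.77% of all genes showed. They were WRKY6, WRKY8, WRKY15, WRKY17, WRKY18, WRKY25, WRKY26, WRKY30, WRKY33, WRKY40, WRKY48, WRKY51, WRKY53, WRKY55, WRKY57, WRKY70, WRKY72 and WRKY75. The highest library exceeded the lowest 4.54-fold for WRKY6, a regulator of senescence and phosphate transport, 6.03-fold for WRKY55, 3.77-fold for WRKY48 and 2.8-fold for WRKY8, and dwarf 1 was the highest in all 4.

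**Figure D2:**
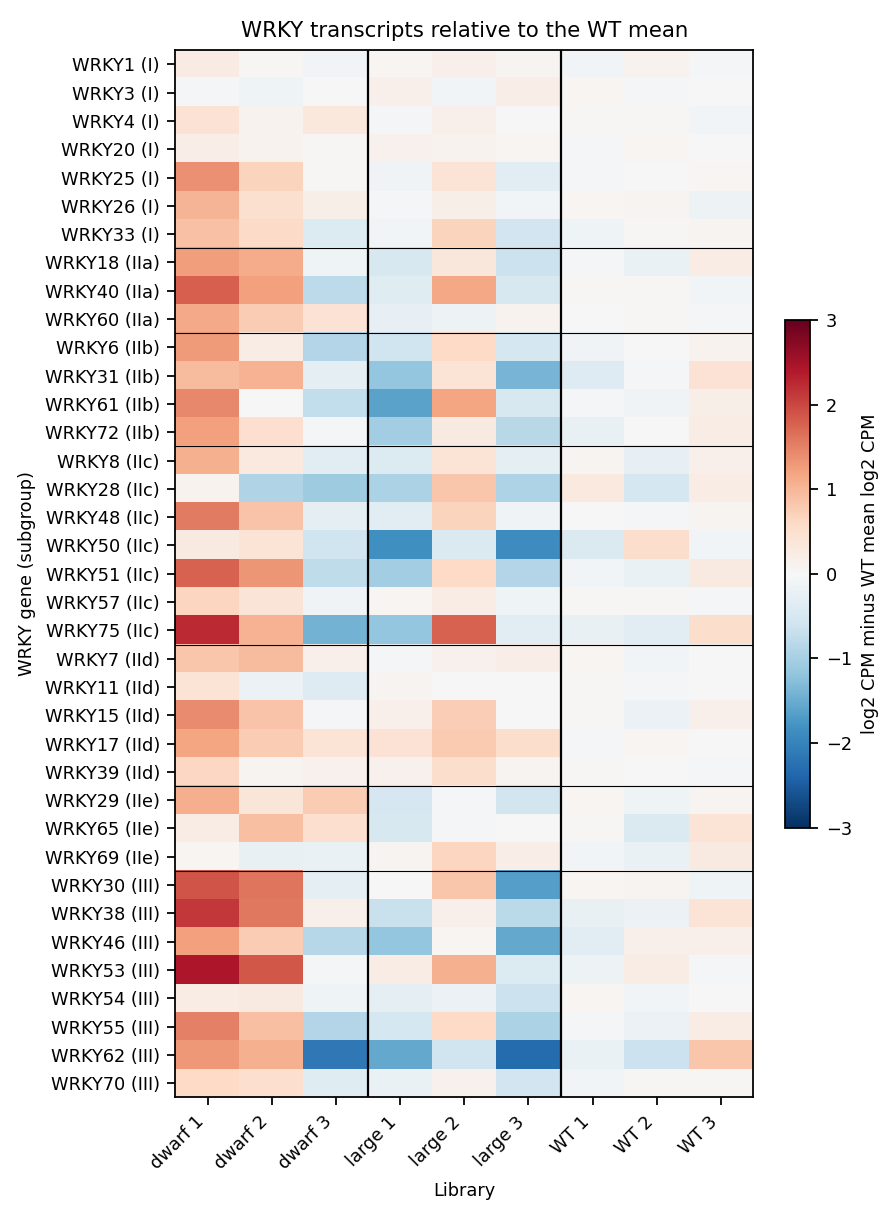
Level of each WRKY gene (rows, by subgroup) in each library (columns) as log2 CPM minus the mean of the 3 WT libraries, from blue (lower) to red (higher). Red columns are dwarf 1, dwarf 2 and, less strongly, large 2, while dwarf 3, large 1 and large 3 hold most of the blue cells. The rows of WRKY1, WRKY3, WRKY4 and WRKY20 at the top are the palest.

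**Figure D3:**
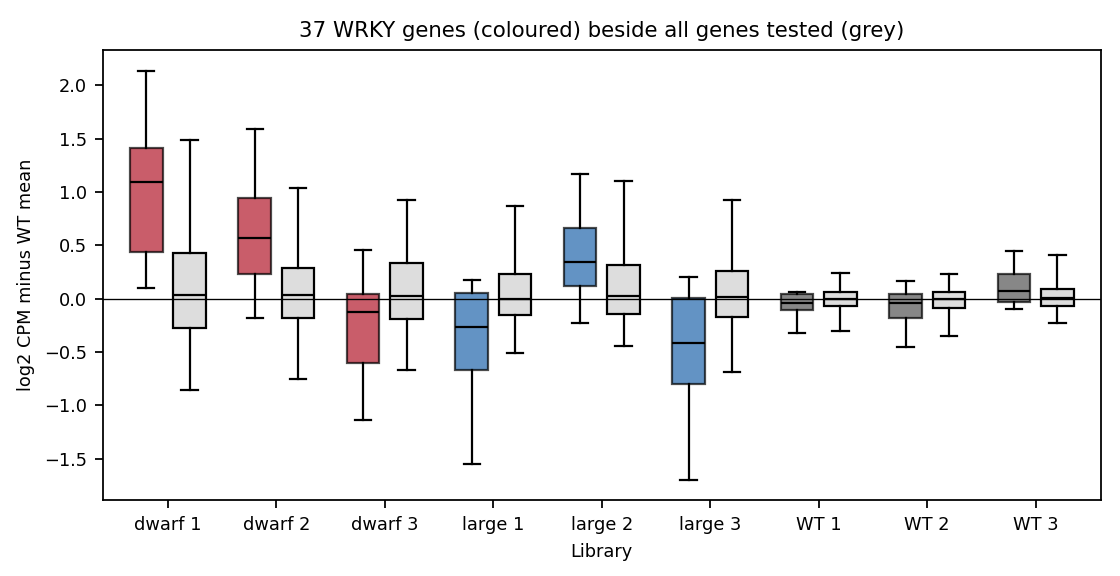
Spread of the same log2 differences in each library for the 37 WRKY genes (coloured boxes) and for all genes tested (grey boxes). Boxes run from the lower to the upper quartile with a line at the median, and whiskers from the 5% to the 95% quantile. The median of the WRKY genes is 1.09 in dwarf 1 and -0.42 in large 3, while all grey medians lie near 0.

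Subgroups differed in how far they spread. The 7 group I members had a median span of 1.44-fold over the 9 libraries, and WRKY1, WRKY3, WRKY4 and WRKY20 were nearly flat. The 8 group III members had a median span of 6.98-fold and the 4 IIb members of 6.13-fold. WRKY31, WRKY61 and WRKY72 of IIb were also the lowest members per length. They had 17, 14 and 5 reads in their lowest libraries, so their spans rest on few reads. In dwarf 1 the median log2 ratio to the WT mean was 1.41 for group III, 1.26 for IIb, 1.25 for IIa and 0.44 for group I. Subgroup IIe, with 3 genes, had a different order, with its highest median in dwarf 3 (0.51). That median was the value of WRKY65, whose neighbours on chromosome 1 were raised by 0.47 in dwarf 3. WRKY29 and WRKY69 stood at 0.75 and -0.20 in that library.

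Photosynthesis markers were lowest in sum in dwarf 1, dwarf 2 and large 2, and other marker lists followed these libraries in part or not at all. Summed senescence markers (8 genes) stood at 544, 245 and 161 CPM in dwarf, 206, 401 and 193 CPM in large and 237, 268 and 246 CPM in WT libraries, so dwarf 1 and large 2 were above WT and dwarf 2 lay within it. Of these 8 genes, 7 were above all WT libraries in dwarf 1, 4 in dwarf 2 and 6 in large 2, while 3 were below all of them in dwarf 2 and 1 in large 2. SAG12, SAG13 and NYE1 were above WT in all 3 of these libraries, SEN1 in none, and the log2 fold changes of PPH and SEN1 for dwarf against WT were negative (-0.24 and -0.84). SAG12, a senescence-specific protease gene, was at 62.4, 9.53 and 0.154 CPM in dwarf, 3.47, 7.91 and 0.76 CPM in large and 0.562, 1.14 and 0.0854 CPM in WT. Summed photosynthesis markers (6 genes) were lowest in dwarf 1, large 2 and dwarf 2, at 16047, 20126 and 20945 CPM, against 26874 to 33647 CPM in the other 6 libraries. Large 1 and large 3, at 26874 and 28011 CPM, were also below the lowest WT library at 29269 CPM. All 6 genes were below every WT library in dwarf 1, dwarf 2 and large 2, 5 in large 1, 4 in large 3 and 3 in dwarf 3. Above every WT library were 2 in dwarf 3 and 1 in large 3. Secondary wall and xylem markers (7 genes) summed to 64.6 and 69.8 CPM in dwarf 1 and dwarf 2, against 105 to 114 CPM in the other 7, large 2 among them. Floral organ markers summed to 0.864 to 1.23 CPM in dwarf, 1.20 to 1.93 CPM in large and 1.11 to 1.34 CPM in WT libraries, with 7 of 8 under the filter. Root markers summed to 45.8 to 51.7 CPM in dwarf, 46.6 to 58.6 CPM in large and 43.8 to 56.3 CPM in WT, with CASP1, COBL9, EXPA7, EXPA18 and WER under the filter. Fewer cells of a type and less RNA per cell cannot be told apart in such samples, and the part of these markers in the WRKY values was not tested.

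The comparison of dwarf with WT asks how the plants of the dwarf phenotype differed from wild type. Of the 37 members, 2 rose in dwarf, WRKY17 and WRKY60, and 0 fell (edgeR quasi-likelihood test, adjusted p under 0.05 over all genes). Over all genes tested 8.76% were called, 6.54% up and 2.22% down, so the 5.41% of members called up lay near the background. Log2 fold changes were positive for 33 of 37 members, with a median of 0.60, against 56.4% of all genes and a median of 0.05. At an unadjusted p under 0.05, 11 members were higher in dwarf and 0 lower (29.7%, against 17.1% and 9.17% of all genes). All 3 dwarf libraries lay above all 3 WT libraries for 7 members (18.9%, against 16.8% of all genes), namely WRKY4, WRKY7, WRKY17, WRKY26, WRKY29, WRKY39 and WRKY60.

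WRKY17 (AT2G24570), a IId member and, with its close relative WRKY11, a known negative regulator of basal resistance to bacteria, stood at 21.1, 15.7 and 12.2 CPM in dwarf and at 8.85, 9.63 and 9.08 CPM in WT libraries. The 2 groups did not overlap, and dwarf 1 was the highest. Its log2 fold change was 0.83 (SE 0.19, 95% interval 0.41 to 1.26, adjusted p = 0.0303). WRKY11 itself, at 53.3, 35.4 and 30.6 CPM in dwarf and 40.6, 38.8 and 40.1 CPM in WT libraries, had a log2 fold change of 0.00 (adjusted p = 0.996). WRKY11 was named for its relation to WRKY17, after its values were seen, and the difference between the 2 genes was not tested.

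WRKY60 (AT2G25000), a IIa member that can form complexes with WRKY18 and WRKY40, stood at 29.2, 22.4 and 18.0 CPM in dwarf and at 13.2, 13.5 and 12.9 CPM in WT libraries. Every dwarf library exceeded every WT library, and the WT libraries lay close together. The log2 fold change came to 0.81 (SE 0.17, 95% interval 0.43 to 1.20, adjusted p = 0.0236). Over the alternatives the adjusted p ranged between 0.00184 and 0.116 for WRKY17 and between 0.000693 and 0.0958 for WRKY60. Both calls were lost with only the 2 groups in the fit (adjusted p = 0.0789 and 0.0676) and without dwarf 2, WT 1, WT 2 or WT 3, and that of WRKY17 also without dwarf 1 or large 1 (adjusted p between 0.0505 and 0.116). A block for replicate number in the fit also lost both calls. The number of members called was 14 without dwarf 3, all higher in dwarf, where 14.3% of all genes were called up. It was 1 without dwarf 1 or without large 1, and 0 without dwarf 2, WT 1, WT 2 or WT 3. In these 6 settings 6.03, 4.79, 5.52, 1.32, 1.45 and 3.6% of all genes were called in either direction. With both dwarf 1 and large 2 left out it was 2, the same WRKY17 (log2 fold change 0.58) and WRKY60 (0.58), while the median over members dropped to 0.21. Without dwarf 1 alone that median was 0.24, with 29 of 37 positive.

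**Figure D4:**
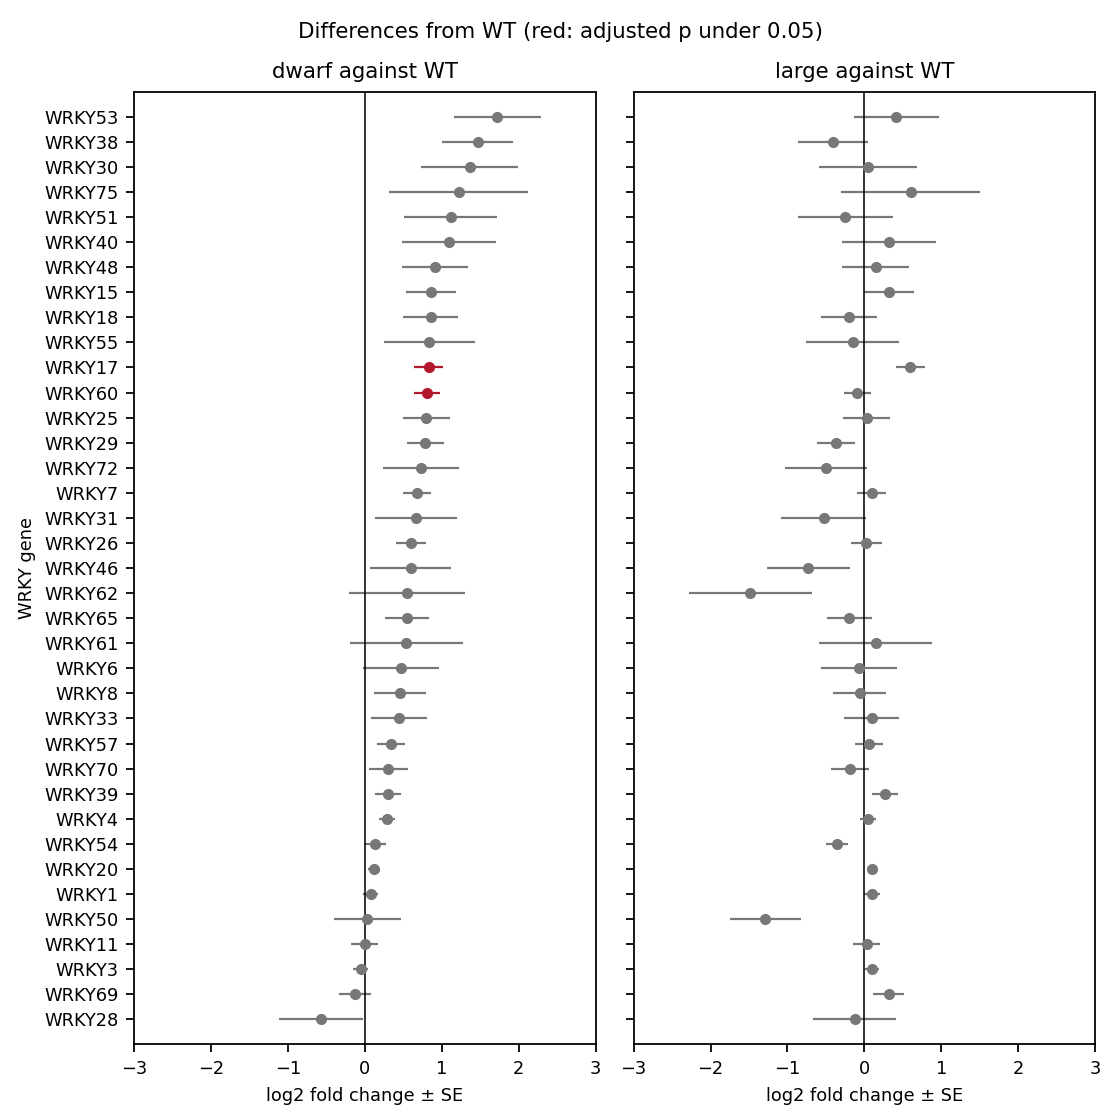
Log2 fold change with its standard error for each WRKY gene in dwarf against WT (left) and large against WT (right), ordered by the left panel, from the fit of all 9 libraries with 3 per group. Red marks an adjusted p under 0.05, reached by WRKY17 and WRKY60 on the left and by no gene on the right. The widest bars belong to genes that differ most among libraries of the same label, such as WRKY75 and WRKY62.

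The members next in order of p missed the threshold. WRKY7 (AT4G24240), a calmodulin-binding IId member, had 20.1, 21.9 and 12.5 CPM in dwarf and 11.7, 10.8 and 11.5 CPM in WT libraries, with no overlap and a log2 fold change of 0.68 (adjusted p = 0.0567). WRKY29 (AT4G23550), which acts below the MAP kinase cascade of flagellin perception, had 3.40, 2.03 and 2.68 CPM in dwarf and 1.63, 1.43 and 1.65 CPM in WT libraries, also with no overlap (0.78, adjusted p = 0.0775). Both were called by the Wald test of DESeq2, which called 6 members in all (WRKY7, WRKY17, WRKY29, WRKY38, WRKY53 and WRKY60), all higher in dwarf, where it called 10.4% of all genes up. Limma voom with quality weights, which lets libraries count unequally, called 14 members up and 15.2% of all genes up. Those 14 were the same members that edgeR called without dwarf 3. An opposite-strand gene covers 18% of the exon bases of WRKY29 and 22.5% of those of WRKY53, and since the libraries do not mark strand, reads of the partners cannot be told apart there.

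The trio of subgroup IIa, WRKY18, WRKY40 and WRKY60, codes for proteins that bind one another and act partly redundantly in basal defence and abscisic acid signalling. WRKY18 (AT4G31800) had 89.9, 81.5 and 34.8 CPM in dwarf, 27.0, 47.8 and 24.3 CPM in large and 36.9, 33.0 and 44.2 CPM in WT libraries. Dwarf 1 and dwarf 2 were above all others, and dwarf 3 lay within the WT libraries. WRKY40 (AT1G80840) had 27.4, 18.5 and 4.57 CPM in dwarf, 6.17, 17.9 and 5.64 CPM in large and 8.14, 8.10 and 7.48 CPM in WT libraries. Here dwarf 3 was the lowest of all 9 libraries, and large 2 was close to dwarf 2. WRKY60 differed from both in that dwarf 3 was above WT and large 2, at 11.9 CPM, was below the lowest WT library. The log2 fold changes of dwarf against WT were 0.85 for WRKY18 (SE 0.36, adjusted p = 0.175) and 1.09 for WRKY40 (SE 0.61, adjusted p = 0.296), and neither passed the test, although without dwarf 3 both did (adjusted p = 0.0167 and 0.0426). Without dwarf 1 they stood at 0.61 and 0.55 (adjusted p = 0.364 and 0.633).

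WRKY46, WRKY54 and WRKY70 of group III are induced by salicylic acid, and WRKY54 and WRKY70 are known to restrain leaf senescence. WRKY46 (AT2G46400) had 23.9, 17.2 and 5.58 CPM in dwarf, 4.49, 10.6 and 3.51 CPM in large and 8.19, 11.3 and 11.4 CPM in WT libraries. WRKY54 (AT2G40750) had 127, 132 and 100.0 CPM in dwarf, 90.8, 96.2 and 69.4 CPM in large and 113, 104 and 111 CPM in WT libraries. WRKY70 (AT3G56400) had 255, 242 and 132 CPM in dwarf, 147, 185 and 114 CPM in large and 160.4, 175 and 174 CPM in WT libraries. In all 3 genes dwarf 1 and dwarf 2 were above every WT library and dwarf 3 was below every WT library. Log2 fold changes of dwarf against WT were 0.60 for WRKY46, 0.13 for WRKY54 and 0.31 for WRKY70 (adjusted p = 0.513, 0.601 and 0.477), and none passed. Single dwarf libraries moved these values. Without dwarf 1 they were 0.15, 0.09 and 0.14, without dwarf 2 they were 0.52, 0.06 and 0.19, and without dwarf 3 they were 0.99, 0.25 and 0.55, with none called in any of the 3 settings.

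**Figure D5:**
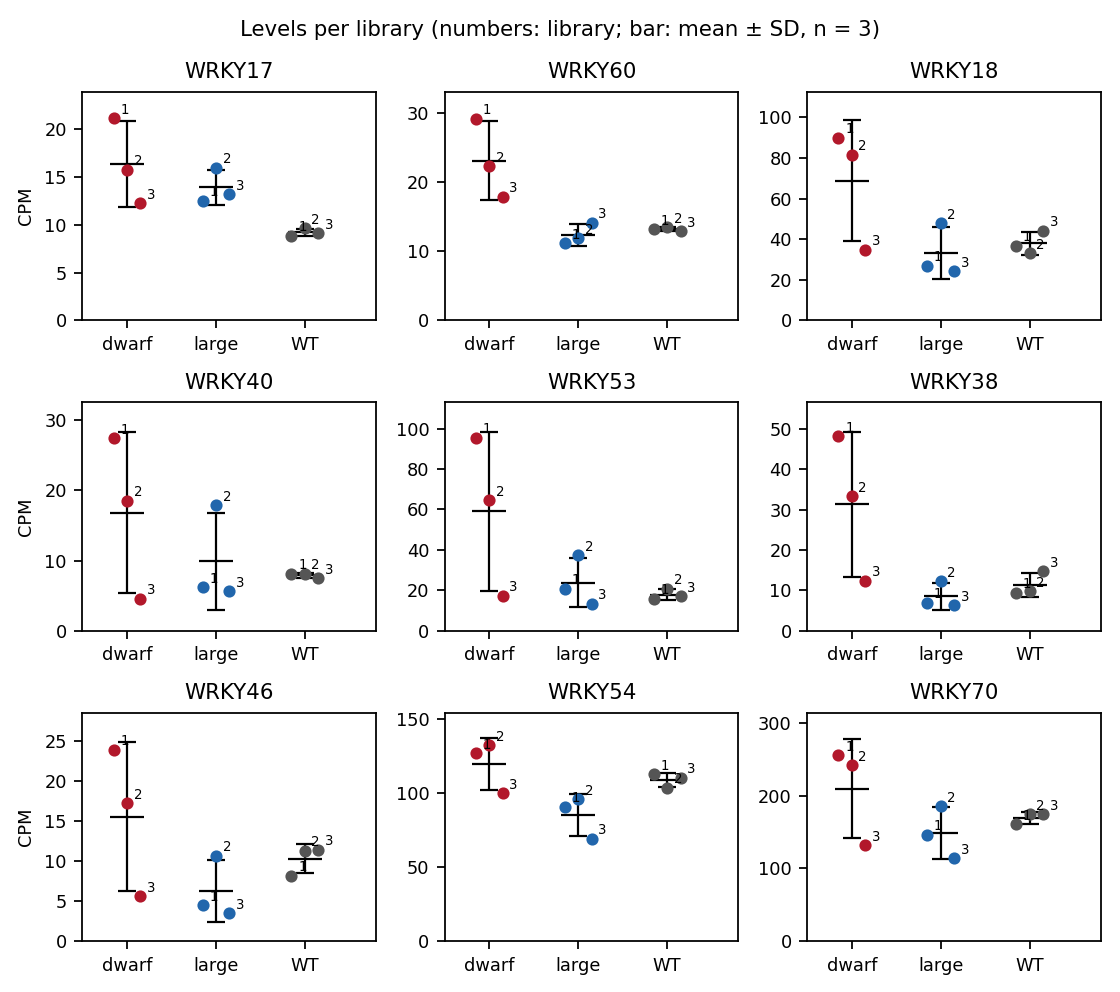
CPM of 9 WRKY genes in each library (points, numbered by library), with the mean and SD of each group (black, n = 3). In WRKY17 and WRKY60 the dwarf points lie above all WT points, while in WRKY40, WRKY46, WRKY54 and WRKY70 dwarf 3 lies below all WT points. The vertical axes start at 0 and differ between panels.

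Among the remaining defence members, WRKY33 (AT2G38470), which is phosphorylated by MAP kinases and required for camalexin synthesis, had 109.7, 87.9 and 44.6 CPM in dwarf, 55.5, 94.8 and 39.9 CPM in large and 54.2, 60.7 and 63.1 CPM in WT libraries. Dwarf 1, large 2 and dwarf 2 were the 3 highest, and its log2 fold change of 0.44 for dwarf against WT did not pass (adjusted p = 0.472). It was 0.16 without dwarf 1 and 0.73 without dwarf 3 (adjusted p = 0.831 and 0.117). WRKY38 (AT5G22570), a repressor of basal defence that acts with WRKY62, had 48.1, 33.3 and 12.4 CPM in dwarf, 6.94, 12.3 and 6.34 CPM in large and 9.44, 9.74 and 14.8 CPM in WT libraries (dwarf against WT 1.47, adjusted p = 0.0813). WRKY53 (AT4G23810), an activator of leaf senescence and the member with the highest positive log2 fold change, had 95.4, 64.7 and 17.4 CPM in dwarf, 20.9, 37.4 and 13.3 CPM in large and 15.9, 20.9 and 17.0 CPM in WT libraries (1.72, adjusted p = 0.0917). In both genes dwarf 3 lay within the WT libraries, and both passed without dwarf 3 (adjusted p = 0.00564 and 0.00599). Without dwarf 1 WRKY38 was at 1.01 and WRKY53 at 1.20 (adjusted p = 0.201 and 0.226). WRKY53 was chosen after its values were seen, as was the dwarf against WT value of WRKY38. WRKY28, a known binder of the ICS1 promoter, had the lowest log2 fold change of the 37 (-0.57, adjusted p = 0.549, also chosen after its values were seen).

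The comparison of large with WT asks the same of the plants of the large phenotype, which share the genotype label with dwarf. Of the 37 members, 0 passed the test in edgeR, where 4.22% of all genes did (3.89% up and 0.327% down). At an unadjusted p under 0.05, WRKY17 was higher and WRKY50 and WRKY54 were lower, against 13.9% and 4.82% of all genes. DESeq2 called 1 member, WRKY50, which was lower in large, and 9.23% of all genes (7.35% up and 1.89% down). Limma voom called 4 members and 21.1% of all genes (14.8% up and 6.34% down). Both member counts lay below these shares for either direction. However, WRKY50 fell, and falls made up the smaller part of each share. Log2 fold changes were positive for 20 of 37 members, against 51.8% of all genes, with a median of 0.03. Without large 2, 9 of 37 were positive and the median was -0.36, and by limma voom 11 were positive with a median of -0.22. The count called was 1 (WRKY17) without dwarf 1 or without dwarf 3, and 1 (WRKY50) without both dwarf 1 and large 2. Because dwarf and large were set against the same 3 WT libraries, the 2 comparisons are not independent of each other.

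WRKY17 stood at 12.5, 16.0 and 13.2 CPM in large libraries, all above the WT libraries at 8.85 to 9.63 CPM (log2 fold change 0.60, SE 0.19, 95% interval 0.17 to 1.02, adjusted p = 0.119). The other members with no overlap above WT were WRKY20 and WRKY39, which made 3 of 37 (8.11%, against 19.7% of all genes). WRKY54 was the member with no overlap below WT (log2 fold change -0.35, SE 0.15, adjusted p = 0.230, and -0.22 without large 3), where 13.9% of all genes had none. WRKY60, at 11.2, 11.9 and 14.2 CPM in large libraries, spanned the WT values, with a log2 fold change of -0.09 and a 95% interval of -0.48 to 0.30 (adjusted p = 0.860).

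WRKY50 (AT5G26170), which carries the AAG codon shown above and binds the PR1 promoter, had 1.56, 4.30 and 1.52 CPM in large and 4.29, 8.34 and 5.43 CPM in WT libraries. Large 1 and large 3 were below all WT libraries, and large 2 was level with the lowest of them (log2 fold change -1.29, SE 0.46, adjusted p = 0.164). In dwarf it stood at 6.94, 7.72 and 3.80 CPM. WRKY51, the other member with that codon, had a log2 fold change of -0.25 for large against WT (adjusted p = 0.902) and was named for the codon. WRKY62 (AT5G01900) had 1.34, 2.60 and 0.76 CPM in large and 3.49, 2.52 and 7.17 CPM in WT libraries, with a log2 fold change of -1.48 and a wide 95% interval of -3.30 to 0.33 (adjusted p = 0.384).

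Dwarf set directly against large compares the 2 phenotypes under 1 genotype label and tests whether their differences from WT differ. Of the 37 members, 0 passed the test in edgeR, where 0.649% of all genes did (0.272% up and 0.377% down). At an unadjusted p under 0.05, 15 members were higher in dwarf and 0 lower (40.5%, against 10.7% and 9.24% of all genes). DESeq2 called 6 members and limma voom 22, all higher in dwarf, where they called 4.73% and 10.8% of all genes up. Without dwarf 3 edgeR called 16, all higher in dwarf, and 9.29% of all genes up, and without any other single library it called 0. Log2 fold changes were positive for 32 of 37 members with a median of 0.58, against 51.9% of all genes and a median of 0.01. Without dwarf 1 the median was 0.31 with 27 positive, without large 2 it was 0.87 with 33 positive, and without both it was 0.59 with 30 positive. The 5 members whose dwarf libraries all exceeded the large libraries were WRKY29, WRKY38, WRKY54, WRKY60 and WRKY65 (13.5%, against 8.79% of all genes). WRKY69 was the member with the opposite arrangement (2.7%, against 11.2%), and 2 opposite-strand genes together cover 30.6% of its exon bases.

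WRKY60 came nearest to the threshold, with dwarf libraries at 18.0 CPM or more and large libraries at 14.2 CPM or less (log2 fold change 0.90, SE 0.17, 95% interval 0.52 to 1.29, adjusted p = 0.0527). WRKY29 had 3.40, 2.03 and 2.68 CPM in dwarf and 1.08, 1.51 and 1.05 CPM in large libraries (1.16, SE 0.24, adjusted p = 0.0680). WRKY38 differed by 1.87 (SE 0.46, adjusted p = 0.0883), and its lowest dwarf library, at 12.4 CPM, was just above its highest large library, at 12.3 CPM. WRKY54 differed by 0.49 (SE 0.15, adjusted p = 0.123). WRKY17, called for dwarf against WT, had 0.24 in dwarf against large (95% interval -0.18 to 0.66, adjusted p = 0.510, and 0.01 without dwarf 1), so a difference between the phenotypes was not shown for it.

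A few members lay in stretches of chromosome 1 whose genes were raised together in 1 or 2 dwarf libraries. The median log2 ratio to the WT mean of up to 50 tested genes on each side was 0.53, 0.54 and 0.47 in dwarf 3 around WRKY4, WRKY61 and WRKY65. Around WRKY40 it was 0.50 in dwarf 1 and 0.63 in dwarf 2, and around WRKY57 it was 0.56 in both. For the remaining 32 members it was at most 0.19 in size in every library. With these steps taken out, WRKY40 had a log2 fold change of 0.61 for dwarf against WT (adjusted p = 0.537), and WRKY17 and WRKY60, at 0.91 and 0.84, still passed (adjusted p = 0.0420 and 0.0327). Of the members with no overlap, WRKY4 (dwarf above WT) and WRKY65 (dwarf above large) lie in the stretches raised in dwarf 3. In that library their own log2 ratios to the WT mean were 0.31 and 0.51.

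Among the other 35 family genes, several were called. Of the 24 that passed the filter, 7 rose in dwarf against WT (WRKY14, WRKY19, WRKY41, WRKY42, WRKY47, WRKY59 and WRKY71), 3 rose in large against WT (WRKY14, WRKY35 and WRKY42), and 0 fell in either by edgeR. At an unadjusted p under 0.05 none was lower in dwarf and 1 was lower in large. DESeq2 called 10 up in dwarf and 5 up in large, with 0 down in either, and limma voom 12 up in dwarf and 8 up and 1 down in large. In dwarf against large 0 of the 24 passed by edgeR, where 5 were higher and 1 lower at an unadjusted p under 0.05, and DESeq2 called 5 and limma voom 6, all higher in dwarf. EdgeR called 6.54% of all genes up in dwarf against WT, 3.89% in large against WT and 0.272% in dwarf against large. In the same order DESeq2 called 10.4, 7.35 and 4.73% up and limma voom 15.2, 14.8 and 10.8%. At an unadjusted p under 0.05, 17.1, 13.9 and 10.7% were higher and 9.17, 4.82 and 9.24% lower. Limma voom called 6.34% down in large against WT. WRKY47, on chromosome 4, had 63.9, 41.3 and 18.3 CPM in dwarf, 12.9, 15.2 and 10.5 CPM in large and 8.43, 10.2 and 10.5 CPM in WT libraries, with a log2 fold change of 2.08 in dwarf against WT (adjusted p = 0.0157). Its neighbours were raised too, by 0.99 in dwarf 1 and 0.49 to 0.58 in the other 5 PPD3-RNAi libraries, and with that step taken out it still passed at 1.33 (adjusted p = 0.0449). WRKY42, also on chromosome 4, had 11.2, 9.53 and 5.37 CPM in dwarf, 7.82, 7.45 and 8.95 CPM in large and 3.58, 3.42 and 3.73 CPM in WT libraries. Its log2 fold change was 1.28 in dwarf against WT (adjusted p = 0.0167), and with the step taken out it did not pass at 0.58 (adjusted p = 0.116). WRKY19 and WRKY41 also lie on chromosome 4, with log2 fold changes of 0.65 and 4.29 in dwarf against WT. Neighbours of WRKY19 were raised by 1.13, 0.62 and 0.55 in dwarf 1, dwarf 2 and dwarf 3. Those of WRKY41 were raised by 1.07, 0.65 and 0.55. WRKY71, on chromosome 1, had 6.26, 2.7 and 0.957 CPM in dwarf and 0.473, 0.176 and 0.114 CPM in WT libraries (3.69, adjusted p = 0.0212). WRKY14 had 1.18, 1.70 and 1.64 CPM in dwarf, 4.21, 2.16 and 1.78 CPM in large and 0.0296, 0 and 0.285 CPM in WT libraries, and it rose in both comparisons (adjusted p = 0.0223 and 0.0203). Neighbours of WRKY14 and WRKY71 were raised by 0.47 and 0.44 in dwarf 3. Both calls in dwarf against WT were kept with the steps taken out. WRKY35 had 0.569, 0.493 and 0.555 CPM in large and 0.0592, 0.146 and 0.114 CPM in WT libraries (2.30, adjusted p = 0.0449). In dwarf against WT the calls of WRKY42, WRKY47 and WRKY71 were lost without WT 1, WT 2 or WT 3, and that of WRKY14 without dwarf 2, WT 1 or WT 2 (adjusted p between 0.0523 and 0.0974). In large against WT the call of WRKY14 was lost without WT 1, WT 2 or any large library, and those of WRKY35 and WRKY42 also without WT 3 or dwarf 2 (adjusted p between 0.0514 and 0.172). Taking the neighbourhood steps out, or a block for replicate number, also lost the calls of WRKY35 and WRKY42 in large against WT.

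Upstream of the family, MAP kinases and VQ-motif proteins were examined as a list. The list held 12 genes, of the MAP kinase cascade and of VQ partners, with LSD1, which is of neither kind, among them. Of these 12, MPK4 and MEKK1 rose in dwarf against WT by edgeR (0.83 and 1.02, adjusted p = 0.0217 and 0.0418). In large against WT and in dwarf against large, 0 of 12 passed by edgeR or DESeq2. At an unadjusted p under 0.05, 1 was higher and 4 were lower in large against WT and 1 was higher in dwarf against large. By limma voom, 2 were called up and 6 down in large against WT and 4 up in dwarf against large. Over all genes edgeR called 6.54% up in dwarf against WT. In large against WT 13.9% were higher and 4.82% lower at that unadjusted p, and limma voom called 14.8% up and 6.34% down. In dwarf against large 10.7% were higher, and limma voom called 10.8% up. MPK4 had 150.0, 117 and 94.1 CPM in dwarf and 68.1, 65.4 and 69.2 CPM in WT libraries. MEKK1 had 83.8, 49.4 and 38.0 CPM in dwarf and 27.5, 30.2 and 27.0 CPM in WT libraries. In both genes the groups did not overlap. Both lie on chromosome 4 among raised neighbours, and with the step taken out they stood at 0.13 and 0.29 (adjusted p = 0.493 and 0.341). Both calls were also lost without dwarf 2, WT 1, WT 2 or WT 3, and that of MEKK1 without any large library (adjusted p up to 0.142). MPK3 and MPK6, the kinases that act on WRKY33, had log2 fold changes of 0.16 and 0.01 (adjusted p = 0.663 and 0.966).

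Of 15 defence genes whose promoters WRKY proteins are known to bind or that act with them, 0 passed the test of edgeR in any of the 3 comparisons. At an unadjusted p under 0.05, 4 were higher in dwarf than in WT, 0 differed in large against WT and 10 were higher in dwarf than in large. In the same order DESeq2 called 2 up, 0 and 5 up, and limma voom 5 up, 4 down and 14 up. Over all genes at that unadjusted p, 17.1% were higher in dwarf than in WT and 10.7% than in large. In large against WT 13.9% were higher and 4.82% lower. For dwarf against WT and dwarf against large, DESeq2 called 10.4 and 4.73% up and limma voom 15.2 and 10.8%. Limma voom called 6.34% down in large against WT. Log2 fold changes of the list were positive for 14 of 15 in dwarf against WT, with a median of 1.08. They were negative for 12 of 15 in large against WT, with a median of -0.39. In dwarf against large 15 of 15 were positive, with a median of 1.43. Some of the 15 lie in raised stretches of chromosome 1. Neighbours of ICS1, SARD1 and PR5 were raised by 0.59, 0.54 and 0.50 in dwarf 1. In dwarf 2 they were raised by 0.58, 0.57 and 0.49. Those of FMO1 were raised by 0.53 in dwarf 3. The part of these steps in the values of the list was not tested. FRK1, a kinase gene used as a marker of early immune signalling, had 76.5, 47.9 and 13.1 CPM in dwarf, 7.08, 13.6 and 4.00 CPM in large and 10.2, 7.99 and 14.1 CPM in WT libraries (dwarf against WT 2.09, adjusted p = 0.0700, named after its values were seen). Dwarf 1 and dwarf 2 were again the highest, and dwarf 3 lay within the WT libraries.

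Of 15 rapid wound, touch and general stress genes, 0 passed by edgeR in dwarf against WT, where 3 were higher at an unadjusted p under 0.05 and DESeq2 called 1 and limma voom 2, all up. In dwarf against large 0 passed, with 1 higher and 1 lower at an unadjusted p under 0.05, 1 called down by DESeq2 and 2 called up by limma voom. Over all genes, 17.1% were higher in dwarf than in WT at that p, and DESeq2 and limma voom called 10.4 and 15.2% up. In dwarf against large 10.7% were higher and 9.24% lower, DESeq2 called 3.86% down and limma voom 10.8% up. In large against WT, ERF104 rose, where edgeR called 3.89% of all genes up. ERF104 had 19.9, 23.0 and 20.3 CPM in large and 12.5, 14.8 and 13.4 CPM in WT libraries (0.63, adjusted p = 0.0218), and the call was lost without any of these 6 libraries (adjusted p between 0.0532 and 0.110). Their median log2 fold change was 0.45 in dwarf against WT and 0.19 in large against WT. Among the marker lists, XCP1, a xylem cysteine protease gene, fell in dwarf to 13.1, 15.3 and 17.9 CPM, against 26.1, 27.4 and 24.7 CPM in WT libraries (-0.76, adjusted p = 0.00992), and it was the sole marker that edgeR called in any of the 3 comparisons. That call was lost without WT 1 or WT 2 (adjusted p = 0.0521 and 0.0526). In dwarf against WT, DESeq2 called 3 secondary wall and xylem and 3 photosynthesis markers down, and limma voom 7 and 4. In dwarf against large, DESeq2 called 2 and 0 of these down, and limma voom 7 and 1. Neither called any of these up. Over all genes edgeR, DESeq2 and limma voom called 2.22, 5.66 and 8.07% down in dwarf against WT. In dwarf against large they called 0.377, 3.86 and 8.24% down.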

How the data were processed

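For each library the authors deposited a file of whole-number read counts by gene, without normalization. Per the labels' protocols, libraries followed the TruSeq RNA v2 guide, which does not mark strand. STAR 2.7.0a, Trim Galore 0.4.1 and the TAIR10 build are named, per the submitters' processing notes. The counting step and its use of strand were not given in the sources used here. Lines that name no gene were left out of library sizes and tests. Of gene counts, counts outside annotated genes and ambiguous counts together, 0.642 to 0.900% lay outside annotated genes and 0.228 to 0.309% were ambiguous.

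In R 4.3.3, counts were filtered with filterByExpr, scaled by TMM (factors 0.935 to 1.05) and fitted with the quasi-likelihood model of edgeR 4.0.16 over all 9 libraries and 3 groups, without a block. The threshold for a call was 0.05 for the p adjusted by Benjamini-Hochberg over the 19870 genes. Standard errors were derived from the fold change and its F statistic, and intervals are at 95%. Log2 CPM used a prior count of 2. DESeq2 1.42.0 and limma 3.58.1 (voom with quality weights, which lets libraries count unequally) served as alternatives. Replicates of a group differed beyond sampling noise and none were identical. The fit was tested on simulated data. Gene positions, exon lengths and sequences came from TAIR10.1, since the files hold no coordinates.

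The members and lists were chosen with earlier results of these data known. Values per library are given for members called, the 4 with the smallest p in each comparison, the 3 highest and 3 lowest per length, 2 sets known to act together, and called genes of the other lists, at most 4 per list and comparison. Alternatives were other size factors and filters, only the 2 groups compared, a block, other tests, each library left out, and neighbourhood steps taken out. The alternative without both dwarf 1 and large 2 was chosen after seeing the data.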

Additional observations from a re-analysis of the deposited data

How the results depend on the processing

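For dwarf against WT, where 2 members were called, the count was 0 with only the 2 groups compared, 6 with the Wald test of DESeq2 and 14 with limma voom (with quality weights throughout), and 0 to 14 when each library was left out in turn. Over all genes 8.76% were called, and 2.39, 16, 23.3 and 1.32 to 22.3% under these alternatives. It stayed at 2, WRKY17 and WRKY60, with other size factors or filters, with neighbourhood steps taken out and without both dwarf 1 and large 2. For large against WT, with 0 called, the counts were 1 with only the 2 groups compared, 1 with DESeq2, 4 with limma voom, 0 to 1 with each library left out and 1 without both dwarf 1 and large 2, beside 11.3, 9.23, 21.1, 0.0447 to 7.95 and 5.34% of all genes. For dwarf against large, with 0 called, they were 6 with DESeq2, 22 with limma voom and 0 to 16 with each library left out, beside 8.59, 19 and 0 to 16.1% of all genes. The cause of these shifts was not tested. Over 33 log2 fold changes with a test, 625 alternative values gave 0 reversals, 80 lost calls and 34 gained calls. Those 33 were mainly of genes called or with the smallest p, and the alternatives reuse the same libraries. They do not stand for the signs of all members. In large against WT 20 of 37 members were positive, and 9 without large 2. Of 9 correlations of same-numbered deviations from the group mean, 1 was over 0.1 (range -0.24 to 0.43). It was that of dwarf 3 with large 3, while dwarf 1 with large 2 reached 0.57. Deviations within a group of 3 depend on one another, so these values cannot show whether replicate numbers pair the samples. With the replicate block the count of members was 0 in dwarf against WT, where WRKY17 and WRKY60 had adjusted p = 0.0505 and 0.0511, and 0 in the other comparisons. Depth was near equal, and WRKY72 rested on the fewest reads (5 to 33 per library).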

Other observations

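Several members not described above by library shared the arrangement of dwarf 1, dwarf 2 and large 2 as the 3 highest, and they were chosen for it after their values were seen. WRKY30, a stress-inducible group III gene, had 9.50, 7.78 and 2.07 CPM in dwarf, 2.47, 4.54 and 0.76 CPM in large and 2.6, 2.66 and 2.28 CPM in WT libraries. WRKY51 had 17.7, 13.2 and 3.05 CPM in dwarf, 2.5, 7.88 and 2.81 CPM in large and 4.91, 4.53 and 6.23 CPM in WT libraries. WRKY25, a group I gene linked to heat tolerance, had 85.6, 52.9 and 33.7 CPM in dwarf, 30.8, 44.0 and 26.2 CPM in large and 32.2, 32.7 and 34.1 CPM in WT libraries. By contrast WRKY3, a group I gene linked to resistance against necrotrophic fungi, had 47.4, 44.2 and 49.0 CPM in dwarf, 54.4, 45.9 and 56.2 CPM in large and 50.7, 47.0 and 48.3 CPM in WT libraries, with dwarf 2 lowest and large 3 highest. By edgeR with all 9 libraries and by DESeq2, none of these 4 genes was called in any comparison. WRKY25, WRKY30 and WRKY51 were called higher in dwarf than in WT by limma voom and by edgeR without dwarf 3. In dwarf against large limma voom called all 3, and edgeR without dwarf 3 called WRKY25 and WRKY51.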
